A study of Homo sapiens with 4 samples.

Results

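A set of 33 genes of DNA replication and mitosis was followed in 2 deposited lists of H3K27ac regions from KGN cells, an established human line grown from an ovarian granulosa cell tumor. The genes, 22 of the G1/S transition and 11 of G2/M among 19974 protein-coding genes, were chosen by name, with earlier results of these data known. Their regions were the rows of each list for which the authors' annotation gives a member as the nearest gene. Of the 604 regions in the testosterone list 1 was credited to a member, and of the 19110 regions in the control list 28 were. H3K27ac, acetylation of histone H3 at lysine 27, was measured by chromatin immunoprecipitation (IP) and sequencing. The testosterone IP and input came from KGN cells exposed to testosterone (10 um, the unit as the labels spell it) over 24 h, and the control IP and input from KGN cells whose treatment is labelled control. A protocol field of all 4 libraries, control ones included, repeats the testosterone treatment, and the groups follow the label of each sample. The medium was DMEM-F12 with 10% serum for all 4 libraries, and the labels name no vehicle. Every library came from the same line, and the labels do not say from how many cultures. There is 1 IP per condition, so differences between the lists have no replicate check and carry no p-value.

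Each list was called on 1 IP against its own input. Read totals were not analysed here, so the depth of a library is unknown. Fold is the authors' ratio of the summit pileup plus 1 over the local background plus 1, and pileup is the number of fragments over the summit after the caller's scaling. Both are scaled within a list and are compared here only inside it. A gene is called marked where the authors' annotation credits a region to it and places that region within 1 kb of the start of a transcript of the gene. Each region is credited to 1 gene, so a region near 2 starts marks 1 of them. The lowest -log10 p was 4.92 in the testosterone list and 3.71 in the control list. The lowest -log10 q was nearly the same in both, at 1.31 and 1.32. Of 12 granulosa markers, none was marked in the testosterone list and 2 were in the control list, FOXL2, the transcription factor that maintains granulosa identity, and INHBB, an inhibin beta subunit. FSHR, the FSH receptor, CYP19A1, the aromatase, and AMH were marked in neither list. EPCAM, an epithelial marker, was marked in both lists, and KRT18 was marked in the control list and not in the testosterone list. None of 5 theca and stroma markers or 4 blood markers was marked in either list, and of 4 oocyte markers GDF9 was marked in control cells.

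Before a cell replicates its DNA, the MCM2 to MCM7 helicase is loaded at origins by CDC6 and CDT1, and E2F transcription factors switch on the genes of the G1/S transition. Later, in G2 and M phase, cyclin B with CDK1 drives mitosis together with the Aurora and Polo kinases. The promoters of G1/S genes typically carry E2F sites, and those of G2/M genes typically carry the CHR element (cell cycle genes homology region) and CCAAT boxes, which the DREAM complex, MuvB with B-MYB and the factor NF-Y read. H3K27ac sits on the nucleosomes that flank active promoters.

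RefSeq promoter sequences (GRCh38.p14, 250 bases before the start and 50 after it) were found for 27 of the 33 genes, the others being MCM4, MCM5, E2F8, CCNE2, CDK2 and AURKA. A selection is printed 5′ to 3′ on the strand of the gene. Capitals mark E2F sites (TTTGGCGC, TTTCCCGC, TTTGCCGC or TTTCGCGC), the CHR element (TTTGAA) and CCAAT boxes, each on either strand. RRM2 is shown for the strongest control region of the set, which covers the whole window. CDC25A is shown for a start that lies between 2 regions, and TYMS and PLK1 for windows that lie whole within a region. E2F1 stands for the E2F genes, CCNB2 for the G2/M promoters, and MCM6 and MKI67 are shown because no region lay near them.
RRM2 (chr2:10122489-10122788, plus strand): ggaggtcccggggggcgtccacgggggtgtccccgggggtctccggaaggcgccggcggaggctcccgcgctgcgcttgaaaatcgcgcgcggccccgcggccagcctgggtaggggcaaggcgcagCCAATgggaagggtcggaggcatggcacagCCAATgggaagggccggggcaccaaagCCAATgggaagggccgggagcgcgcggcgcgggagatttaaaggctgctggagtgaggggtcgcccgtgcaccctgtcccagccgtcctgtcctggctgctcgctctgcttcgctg
CDC25A (chr3:48188368-48188667, minus strand): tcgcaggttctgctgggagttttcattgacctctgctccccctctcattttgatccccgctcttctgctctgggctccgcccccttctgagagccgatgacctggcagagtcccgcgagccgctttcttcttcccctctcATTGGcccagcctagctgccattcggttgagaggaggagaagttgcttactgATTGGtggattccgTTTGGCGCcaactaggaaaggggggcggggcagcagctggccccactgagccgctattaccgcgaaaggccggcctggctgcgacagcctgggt
TYMS (chr18:657403-657702, plus strand): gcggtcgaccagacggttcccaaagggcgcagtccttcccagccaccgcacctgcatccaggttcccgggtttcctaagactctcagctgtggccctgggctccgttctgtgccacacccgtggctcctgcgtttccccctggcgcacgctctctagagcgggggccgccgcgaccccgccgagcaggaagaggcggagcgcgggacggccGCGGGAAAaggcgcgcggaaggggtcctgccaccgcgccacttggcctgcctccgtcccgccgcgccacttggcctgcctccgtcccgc
E2F1 (chr20:33686336-33686635, minus strand): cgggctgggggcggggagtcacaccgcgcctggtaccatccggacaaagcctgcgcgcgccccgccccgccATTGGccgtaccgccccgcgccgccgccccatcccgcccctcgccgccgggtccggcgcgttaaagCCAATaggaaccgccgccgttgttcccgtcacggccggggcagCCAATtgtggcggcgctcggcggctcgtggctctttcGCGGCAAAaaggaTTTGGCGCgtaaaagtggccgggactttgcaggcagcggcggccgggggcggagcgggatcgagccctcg
MCM6 (chr2:135876394-135876693, minus strand): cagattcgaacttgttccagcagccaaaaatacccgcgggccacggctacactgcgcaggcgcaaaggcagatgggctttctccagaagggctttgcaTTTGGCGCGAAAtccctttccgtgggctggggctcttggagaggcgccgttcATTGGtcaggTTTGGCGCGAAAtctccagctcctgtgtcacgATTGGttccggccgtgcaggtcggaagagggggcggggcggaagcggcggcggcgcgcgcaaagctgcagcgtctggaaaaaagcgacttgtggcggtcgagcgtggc
PLK1 (chr16:23678639-23678938, plus strand): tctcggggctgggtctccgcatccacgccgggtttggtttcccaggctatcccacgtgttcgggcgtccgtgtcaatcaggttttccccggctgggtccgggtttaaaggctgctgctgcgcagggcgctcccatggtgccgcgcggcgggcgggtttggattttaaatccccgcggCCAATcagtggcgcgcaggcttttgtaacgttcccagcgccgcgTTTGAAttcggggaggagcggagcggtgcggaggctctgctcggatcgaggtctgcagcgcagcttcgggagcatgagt
CCNB2 (chr15:59104896-59105195, plus strand): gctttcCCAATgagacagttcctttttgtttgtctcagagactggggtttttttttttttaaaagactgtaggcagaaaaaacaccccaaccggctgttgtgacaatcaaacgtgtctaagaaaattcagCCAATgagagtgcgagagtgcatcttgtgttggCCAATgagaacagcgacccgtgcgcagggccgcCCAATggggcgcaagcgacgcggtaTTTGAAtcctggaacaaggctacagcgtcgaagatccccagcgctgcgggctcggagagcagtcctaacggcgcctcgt
MKI67 (chr10:128126374-128126673, minus strand): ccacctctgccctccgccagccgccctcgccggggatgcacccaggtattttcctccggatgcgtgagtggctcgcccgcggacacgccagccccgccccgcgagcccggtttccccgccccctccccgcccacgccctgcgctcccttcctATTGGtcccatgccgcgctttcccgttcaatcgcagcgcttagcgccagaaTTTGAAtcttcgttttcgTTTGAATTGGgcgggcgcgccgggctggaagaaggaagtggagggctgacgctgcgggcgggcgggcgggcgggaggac

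Within 1 kb of a start, 0 of the 33 genes were marked in testosterone-treated cells and 18 were marked in control cells. Among all 19974 protein-coding genes, 0.931% were marked in the testosterone list and 41.0% in the control list. The members' share was 0% with testosterone (Wilson 95% interval 0 to 10.4%) and 54.5% in control cells (38.0 to 70.2%), and the control interval includes the 41.0% of all coding genes. By the simpler limit of 3 counts over the number of genes, used below wherever a count is 0, 0 of 33 allows a share of up to 9.09%. These intervals and limits cover counting error only. When any region with a member as nearest gene was counted, 1 gene was found with testosterone and 18 in control cells, beside 2.41% and 48.2% of all coding genes. When a region counted if it touched the gene or its 1 kb flanks, whichever gene it was credited to, 0 genes were found with testosterone and 21 in control cells, beside 2.01% and 51.4% of all coding genes.

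**Figure D1:**
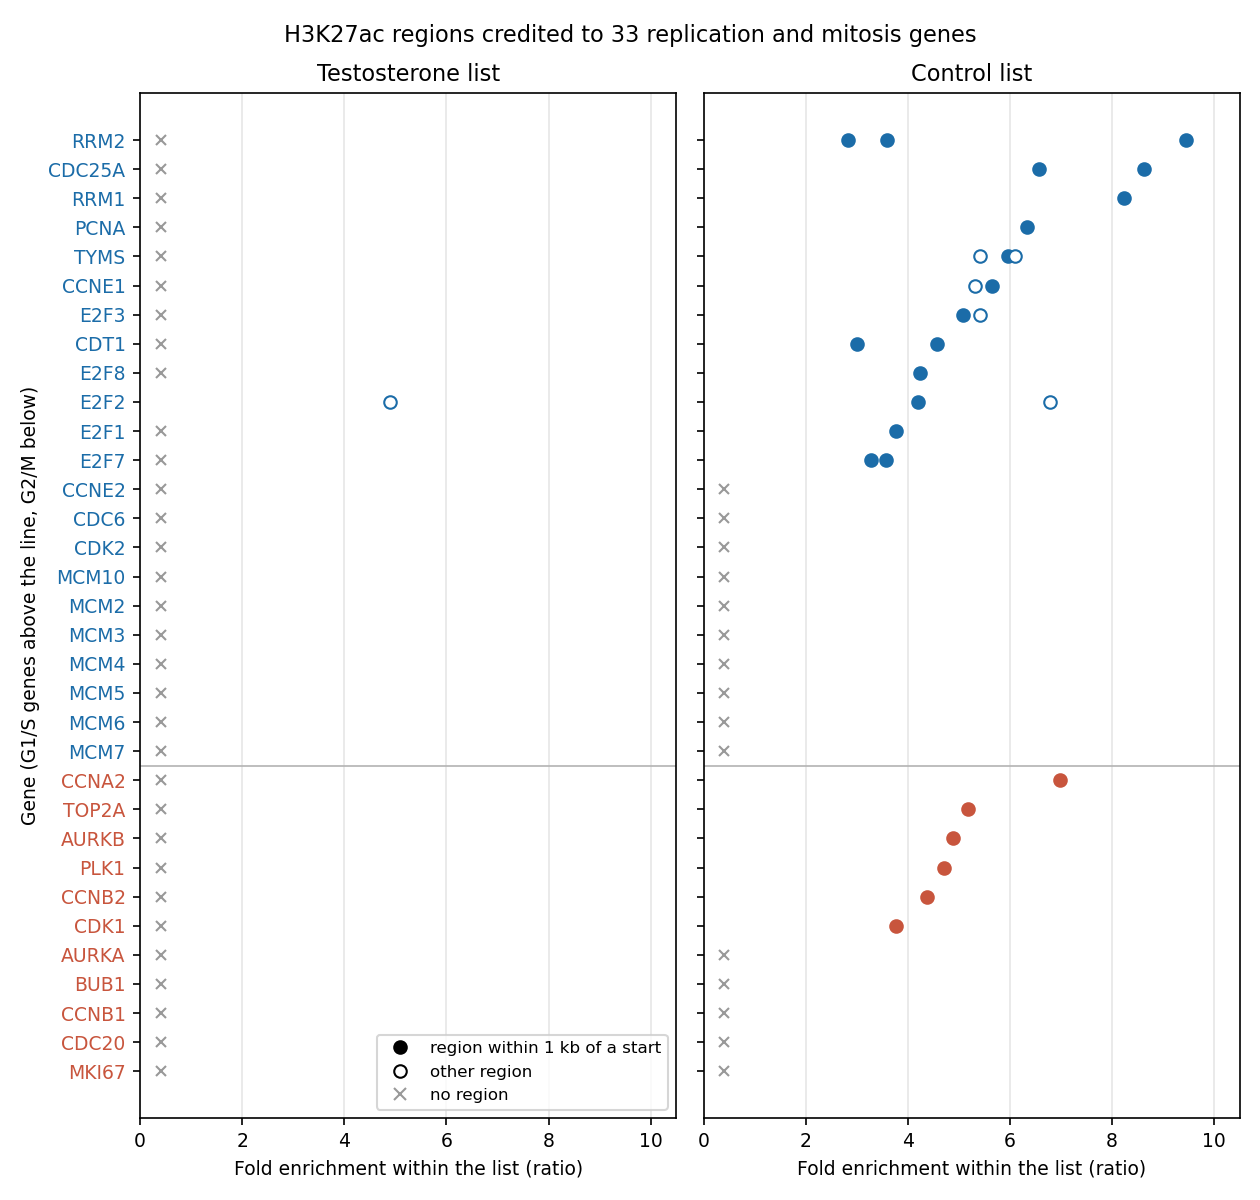
Fold enrichment of every region credited to the 33 genes (x axis, ratio within a list) by gene (y axis), with the testosterone list left and the control list right. Filled points lie within 1 kb of a start, open points farther away, and crosses mark genes with no region; the testosterone list holds 1 open point, at E2F2, and the control list has points for 18 genes.

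The single testosterone region belonged to E2F2, a transcription factor that activates G1/S genes. It spanned 291 bp between genes (chr1:23545046-23545336), 13.8 kb upstream of the E2F2 start, with a pileup of 10 fragments, a fold of 4.89 and a -log10 q of 2.36. The nearest control region lay 5647 bp away from it and was credited to ID3, an inhibitor of helix-loop-helix factors, so the testosterone and control regions of E2F2 did not overlap. In control cells E2F2 had a region 31 bp downstream of its start (pileup 16.9, fold 4.21) and a stronger region in intron 1 (pileup 21.5, fold 6.79).

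None of the 28 control regions of the set overlapped a testosterone region, and none lay within 10 kb of such a region. The smallest gap was 13.9 kb, at E2F2, and the median gap was 2253 kb. The testosterone list held only 604 regions, and the same counts and gaps were not taken over all 19110 control regions. The absence of overlap and the gaps are thus not shown to be particular to the set. Of the 18 genes marked in control cells, 0 were also marked with testosterone, which allows a share of up to 16.7%. Among all coding genes marked in control cells, 1.92% were also marked with testosterone (157 of 8189). The limit for 18 genes lies above that share, so a difference was not detectable at this number of genes. The lowest -log10 p of the testosterone list, 4.92, was reached by 25 of the 28 control regions (89.3%), against 89.9% of all control regions. The 3 below it were the weaker regions of RRM2, E2F7 and CDT1, each of which had another promoter region above it.

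All 3 enzymes of nucleotide synthesis were marked in control cells (43.9 to 100%), beside 41.0% of all coding genes. Among them was RRM2, the gene with the highest fold of the set. RRM2, the regulated small subunit of ribonucleotide reductase, had a region of 1432 bp over its start (chr2:10122019-10123450) with a pileup of 29.03 fragments, a fold of 9.45 and a -log10 q of 18.8. This fold exceeded that of 90.5% of all marked coding genes, each taken at its strongest promoter region. A further pair of RRM2 regions, with folds of 2.82 and 3.59, lay at an upstream transcript start. RRM1, the large subunit, had a region of 330 bp that began 19 bp past an annotated transcript start (chr11:4094862-4095191), with a pileup of 21.5 and a fold of 8.23. TYMS, thymidylate synthase, had a region of 1190 bp over its start with a fold of 5.95, and a further 2 regions inside the gene with folds of 6.10 and 5.41. The testosterone list had no region at any of these genes, and its nearest region lay 86.2 kb from RRM2, 2346 kb from TYMS and 3686 kb from RRM1.

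CDC25A, the phosphatase that activates CDK2 at the G1/S transition, had a pair of control regions on either side of its RefSeq start. The upstream region began 218 bp before the start (pileup 25.3, fold 6.57), and the downstream region lay 642 bp past it (pileup 20.6, fold 8.62). The promoter sequence printed above lies mostly in the gap between them. PCNA, the sliding clamp of the replication fork, had a control region of 517 bp over the downstream of its 2 RefSeq starts (pileup 24.4, fold 6.34). Its upstream start, 6581 bp away from that region, had a neighboring region at 327 bp that was credited to CDS2 (fold 5.18). CDT1, which loads the helicase at origins, had regions with folds of 3.01 and 4.57, the first 208 bp upstream of the RefSeq start and the second 868 bp downstream of it. CDC6, its partner in loading, had none, and the nearest control region lay 5.32 kb from the gene.

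None of the 7 MCM genes was marked in either list, that is, none was credited with a region. The limit that 0 of 7 allows is 42.9%, beside 41.0% of all coding genes in the control list and 0.931% in the testosterone list. MCM2, MCM3, MCM4, MCM5, MCM6 and MCM7 encode the helicase core, and MCM10 a factor needed to activate it. The nearest control region lay 5.93 kb from MCM2, 19.8 kb from MCM5, 30.3 kb from MCM4, 61.1 kb from MCM10, 77.3 kb from MCM3 and 97.04 kb from MCM6. MCM7 was the exception, and would count as marked by distance alone, with a control region 573 bp upstream of its start (chr7:100101971-100102548, pileup 17.8, fold 3.80). That region overlaps the start of AP4M1, a neighbor on the other strand, to which the authors' annotation credits it. The nearest testosterone region to any MCM gene was 18.9 kb from MCM7 and was credited to CNPY4. The MCM genes were set apart as a family after their values were seen. Without them, 12 of the 15 remaining G1/S genes (80.0%, 54.8 to 93.0%) were marked in control cells, against 54.5% of all 22. That rise was fixed by leaving out a family seen to be at 0, and the interval does not cover this choice. The absence of a region says that the caller listed none there, not that the mark is absent.

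All 5 E2F genes of the set were marked in control cells (56.6 to 100%), beside 41.0% of all coding genes. The family is small, and its share was not tested. E2F3, an activator like E2F1 and E2F2, had the widest region of the set, 1868 bp from 20 bp past its first RefSeq start to beyond its second (pileup 24.4, fold 5.07), and a further region in an intron (fold 5.41). E2F1 had a region of 1095 bp that began 502 bp inside the gene (pileup 14.05, fold 3.76). The atypical repressors E2F7 and E2F8 had strongest promoter folds of 3.57 and 4.23. E2F7 had 2 regions with its RefSeq start in the gap between them, 26 bp from the downstream region and 270 bp from the upstream region. The strongest promoter folds of the 5 genes, from 3.57 at E2F7 to 5.07 at E2F3, all lay under 5.86, the median of the same measure over marked coding genes. The intron regions of E2F2 and E2F3 are not part of that comparison. Only E2F2 had a testosterone region, the distal one given above.

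Cyclin and CDK genes were marked in control cells at 4 of 7 and with testosterone at 0 of 7. CCNE1, cyclin E1, the G1/S partner of CDK2, had a control region of 363 bp over an annotated start (pileup 14.99, fold 5.65) and a second, 1082 bp wide, between genes 27.3 kb past a transcript start (fold 5.31). CCNA2, cyclin A2, had the highest fold of the G2/M genes, 6.97, with a pileup of 14.05 (716 bp, chr4:121823020-121823735). CCNB2, cyclin B2, had a higher pileup, 25.3, and a lower fold, 4.38, so the order of these cyclins differs between the 2 measures. CDK1, the mitotic kinase, had the lowest fold of the G2/M genes, 3.76, in a region of 291 bp that began 335 bp past an annotated transcript start. CCNE2, CDK2 and CCNB1 had no region. The nearest control region was 1.27 kb past CDK2, at the start of RAB5B, and 11.3 kb from CCNB1 and 56.4 kb from CCNE2.

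The other mitotic genes were divided. AURKB, PLK1 and TOP2A were marked in control cells and AURKA, BUB1, CDC20 and MKI67 were not, while none was marked with testosterone. AURKB, the kinase of the chromosomal passenger complex, had a region of 718 bp over an annotated start (pileup 23.4, fold 4.88). PLK1, the Polo kinase, had a region of 515 bp over its start (pileup 17.8, fold 4.70). TOP2A, the topoisomerase that untangles sister chromatids, had a region of 415 bp that lay 400 bp upstream of its RefSeq start (pileup 14.99, fold 5.18). AURKA, the spindle pole kinase, had a control region 480 bp from the gene, credited to CSTF1 (fold 4.92). It was not counted for that reason, although the region lay within 1 kb of the gene. No RefSeq promoter entry was found for AURKA, so a distance to its start is not given. CDC20, an activator of the anaphase-promoting complex, had a control region 499 bp past its other end, credited to ELOVL1 (fold 4.62). BUB1, a spindle checkpoint kinase, and MKI67, the gene of the proliferation marker Ki-67, were the farthest from any control region, at 412 kb and 1189 kb.

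**Figure D2:**
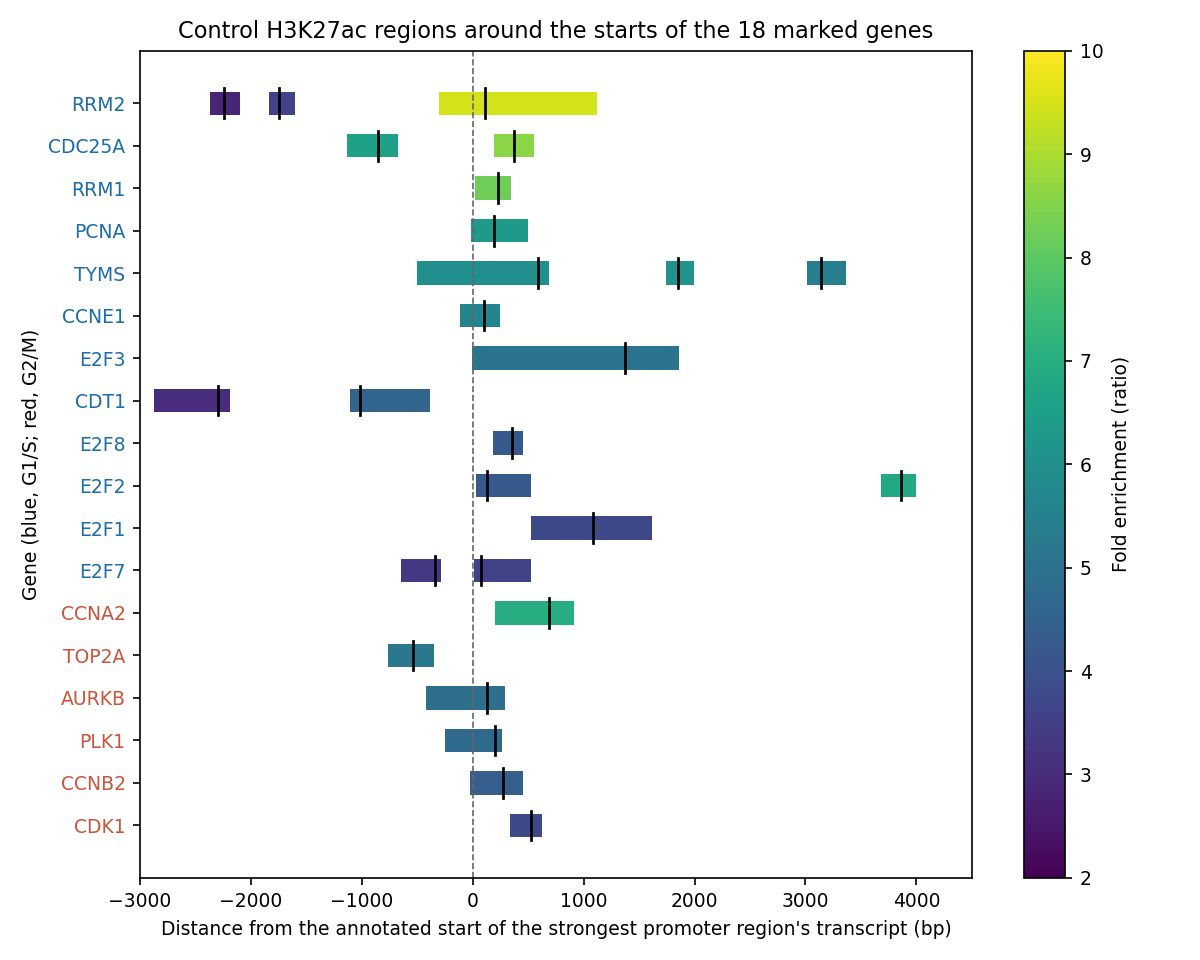
Control regions of the 18 marked genes as bars along the distance from an annotated start (x axis, bp; positive is into the gene), colored by fold, with a black line at the summit. The start is that of the transcript to which the strongest promoter region is credited, an internal start for CDC25A and CDT1, and the distal regions of CCNE1 and E2F3 lie beyond the axis; CDC25A and E2F7 show a region on either side of a gap.

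The G1/S and G2/M genes were then compared, with phases assigned from textbook knowledge of when the mRNA or the protein's role peaks. In testosterone-treated cells 0 of 22 G1/S genes and 0 of 11 G2/M genes were marked, beside 0.931% of all coding genes. These counts allow up to 13.6% and 27.3%. In control cells 12 of 22 G1/S genes (54.5%, 34.7 to 73.1%) and 6 of 11 G2/M genes (54.5%, 28.0 to 78.7%) were marked, so the shares were equal and their intervals wide. Both intervals include the 41.0% of all coding genes. The strongest promoter fold had a median of 5.36 in the G1/S genes (range 3.57 to 9.45) and 4.79 in the G2/M genes (3.76 to 6.97), and the ranges overlapped. The 3 highest folds of the set, at RRM2, CDC25A and RRM1, were all G1/S genes. Above the median of all marked coding genes stood 5 of 12 G1/S genes and 1 of 6 G2/M genes, CCNA2. The median pileup was 16.9 fragments in the G1/S genes and 16.4 in the G2/M genes. Promoter regions summed to a median width of 845 bp per G1/S gene and 498 bp per G2/M gene, beside 644 bp per marked coding gene. The widths overlapped, at 277 to 1940 bp and 291 to 718 bp. With a -log10 q of at least 5, 7 of 22 G1/S and 5 of 11 G2/M genes were marked, 36.4% of the 33 beside 30.6% of all coding genes. With one of at least 10, 4 of 22 G1/S and 0 of 11 G2/M genes were marked, 12.1% of the 33 beside 14.4% of all coding genes. A region on the gene or its 1 kb flanks was found for 13 of 22 and 8 of 11, beside 51.4% of all coding genes. The larger share was thus in G2/M at the limit of 5 and with flanks, and in G1/S at the limit of 10.

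**Figure D3:**
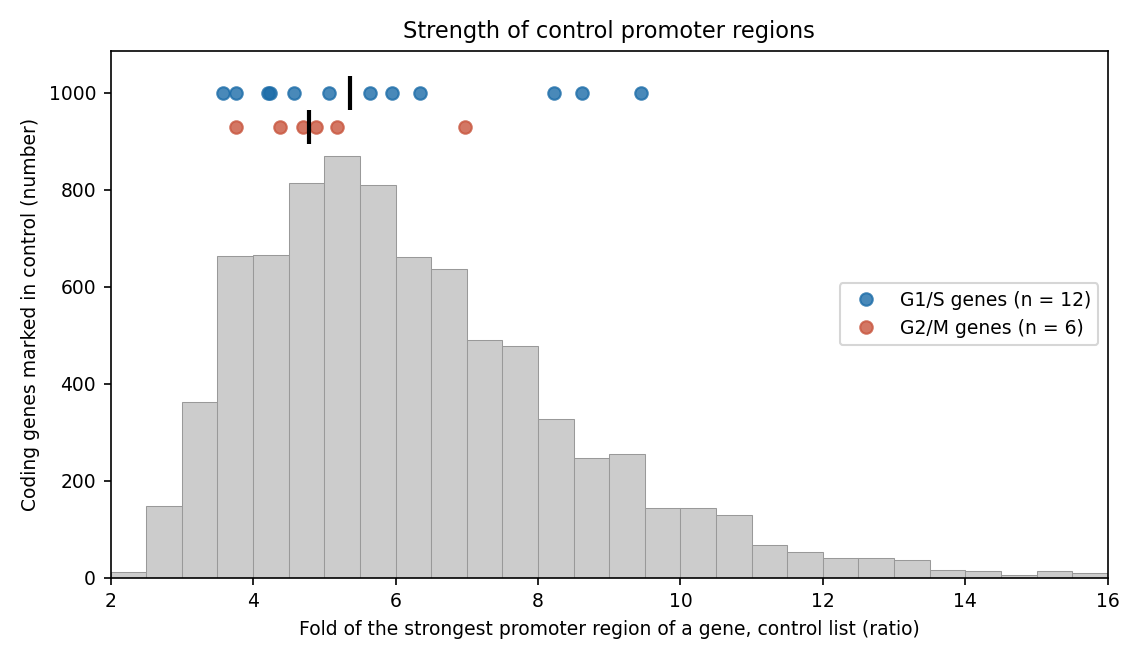
Fold of the strongest control promoter region per gene (x axis, ratio) for all marked coding genes (gray histogram, number of genes) and for the 12 G1/S genes (blue) and 6 G2/M genes (red) as points above it. Black ticks are the medians, 5.36 and 4.79, and both lie left of the median of all marked genes, 5.86; 33 genes with a fold above 16 are outside the axis.

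Over the 18 marked genes the median strongest fold was 4.98, and 6 of 18 exceeded the median of all marked coding genes. For position, the start was that of the transcript to which the authors' annotation credits each region, which can differ from the RefSeq start used above. The CDT1 region 208 bp upstream of the RefSeq start thus covers a start, with its summit 260 bp past it. The CDT1 region 868 bp past the RefSeq start counts as upstream. By this measure the summit was downstream in 17 of 23 promoter regions (73.9%), against 64.2% of all coding promoter regions. The summit lay a median of 311 bp from the start, against 240 bp. The region covered the start in 10 of 23 (43.5%), against 52.9%. More than 1 promoter region was found at 4 of the 18 genes, RRM2, CDC25A, E2F7 and CDT1 (22.2%), against 25.3% of all marked coding genes. These shares count regions of 1 library and carry no test.

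The promoter windows of the phases differed in their motifs. An E2F site stood in a window of 12 of 17 G1/S genes (70.6%) and of 1 of 10 G2/M genes, CDK1 (10.0%), against 5.41% of 15813 coding genes with a window. A CHR element stood in 2 of 17 G1/S genes (11.8%), E2F3 and RRM1, and in 6 of 10 G2/M genes (60.0%), against 15.8%. CCAAT boxes stood in 12 of 17 G1/S genes (70.6%) and in 10 of 10 G2/M genes, against 42.1%. In PLK1 and in CCNB2 the CHR element began 29 bases before the start, and in MKI67 the 2 elements began 29 and 47 bases before it, the nearer sharing its last base with a CCAAT box on the other strand. The E2F site of CDC25A began 44 bases before the start and that of TYMS 39 bases before it. E2F1 had 2 sites, 33 and 20 bases before the start. MCM6 had 4 matches, in 2 places where matches on opposite strands overlap.

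**Figure D4:**
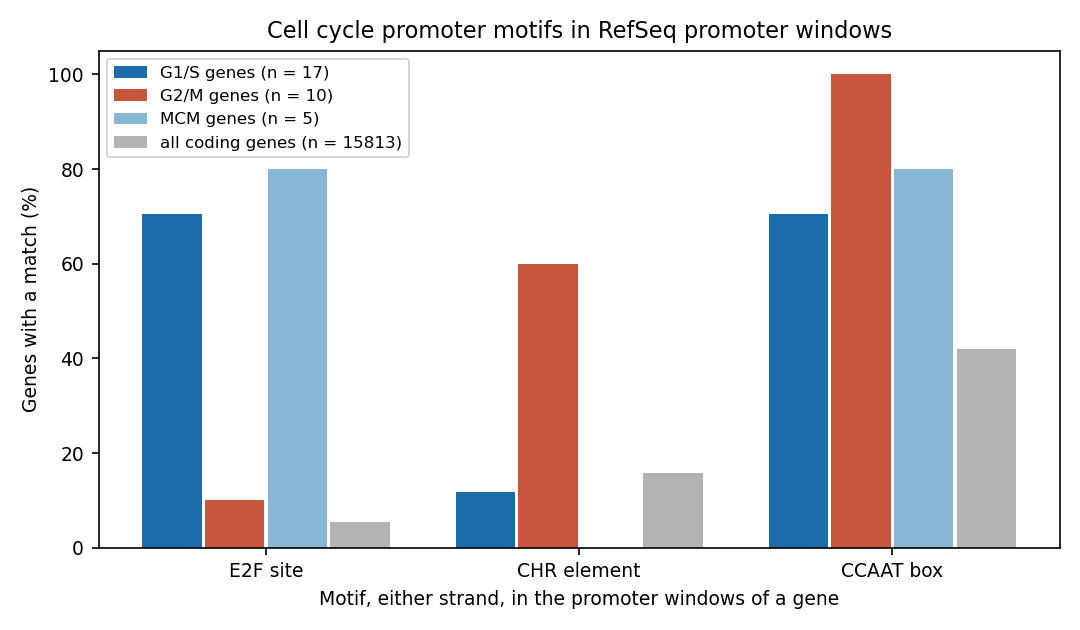
Share of genes (y axis, %) with an E2F site, a CHR element or a CCAAT box in a promoter window, for G1/S genes, G2/M genes, the MCM genes among the G1/S genes, and all coding genes with a window. E2F sites reach 70.6% in G1/S and 10.0% in G2/M genes, and CHR elements 11.8% and 60.0%.

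The same windows were set against the control list. E2F sites were found in 8 of 17 marked genes and 5 of 10 unmarked genes. Over all coding genes with a window the shares were 7.04% where marked and 4.19% where not. CHR elements were found in 6 of 17 and 2 of 10, beside 12.5% and 18.3% of those coding genes. CCAAT boxes were found in 13 of 17 and 9 of 10, beside 42.9% and 41.5%. Among the unmarked, 4 of 5 MCM genes with a window held an E2F site, MCM10 being the exception. The windows had a median GC content of 64.2% in marked members and 65.8% in unmarked members. Over all coding genes the medians were 66.0% where the gene was marked in control cells and 58.7% where it was not. A match is a run of letters and does not show binding.

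A wider list of 139 further genes of replication and mitosis was divided by role. These genes were chosen with earlier results of these data known. The shares below are descriptions, and the interval covers counting error only. With testosterone 0 of 139 were marked, which allows up to 2.16%, and in control cells 94 were (67.6%, 59.5 to 74.8%), beside the 0.931% and 41.0% of all coding genes given above. In control cells the shares by role were 11 of 18 for origin licensing and firing, 19 of 29 for the fork and its polymerases, 7 of 8 for nucleotide supply and 11 of 15 for E2F, RB and DREAM genes. They were 13 of 23 for spindle and kinetochore, 12 of 16 for mitotic kinases and the checkpoint, 11 of 16 for passenger complex, cohesin and condensin genes, and 10 of 14 for the anaphase-promoting complex. The median strongest fold was 6.09 in this list, against 4.98 in the 33 genes.

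In each role the gene with the highest control fold was stronger than RRM2. These were TIMELESS, a fork protection factor (13.7), DUT, the dUTPase (12.6), ANAPC4, a subunit of the anaphase-promoting complex (11.6), WEE1, the kinase that restrains CDK1 (10.8), ORC6, a subunit of the origin recognition complex (10.6), RBBP4, a histone-binding subunit of MuvB (10.4), TPX2, a spindle assembly factor (10.3), and SMC1A, a cohesin subunit (9.50). Regions of the testosterone list were credited to 3 of the 139 genes, all outside the 1 kb window, and these were named after their values were seen. The region at TICRR, an origin firing factor, had a fold of 4.64, that at NUSAP1, a spindle protein, 4.50 and that at POLD4, a DNA polymerase delta subunit, 5.10. In control cells TICRR and POLD4 were marked, with strongest folds of 8.16 and 4.24, and NUSAP1 was not.

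**Figure D5:**
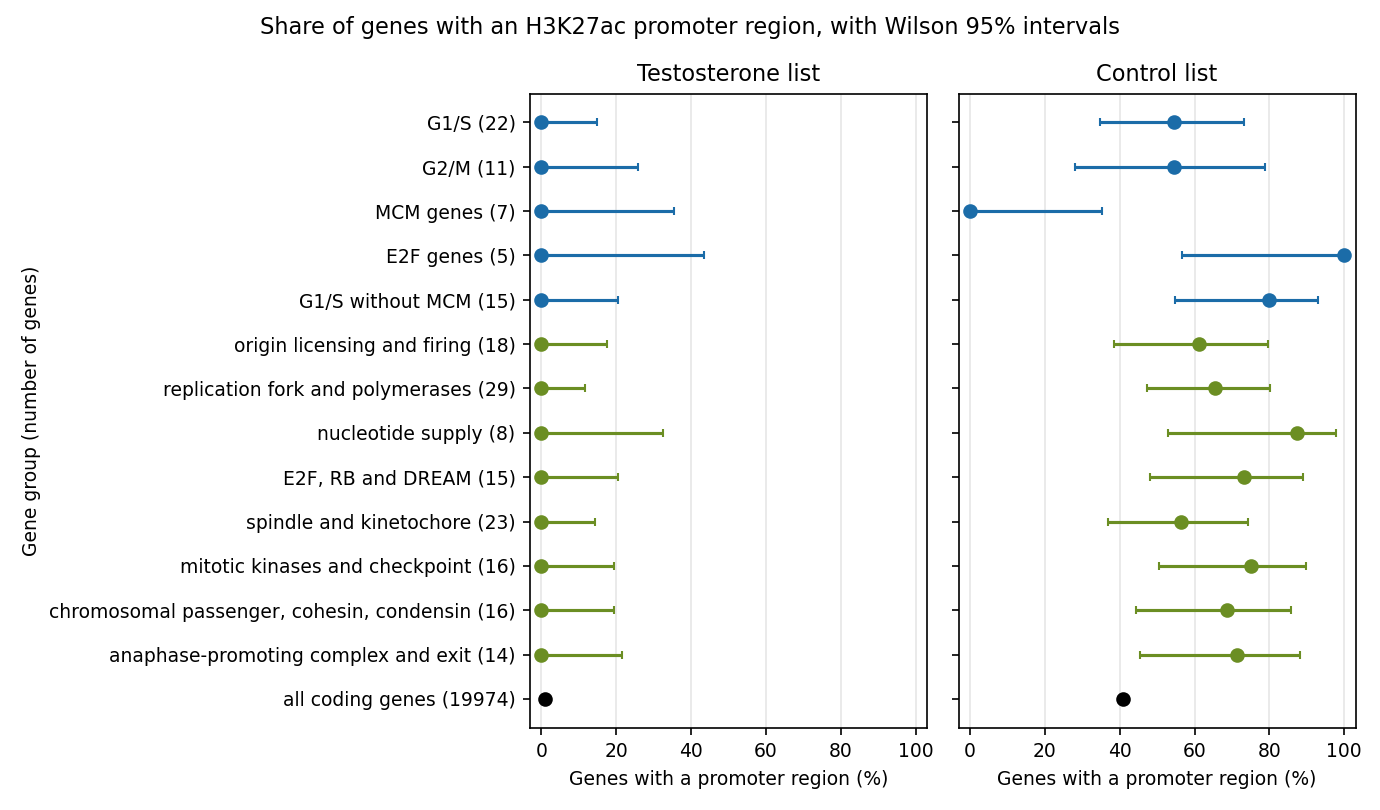
Share of genes with a promoter region (x axis, %) in the testosterone list (left) and the control list (right), for groups of the 33 genes (blue), roles of the 139 further genes (green) and all coding genes (black), with Wilson 95% intervals. The intervals cover counting error only, not the choice of the groups, which was made with earlier results of these data known. Every group is at 0 with testosterone, where all coding genes stand at 0.931%; in control cells the MCM genes are at 0 and the E2F genes at 100%.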

How the data were processed

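H3K27ac ChIP-seq of KGN cells was used as 2 deposited tables of regions, 1 per condition, each from 1 IP against its input. Reads were handled with Bowtie2 2.0, bedtools, MACS2 and ChIPseeker, per the submitters' processing notes, which list mm10 beside hg38; hg38 is the build of the coordinates, whose regions lie over human starts. The caller's settings: not given in the sources used here. In the deposited tables, pileup is a signal at the summit, fold enrichment is a ratio over the local background, and significance is -log10 p and -log10 q, per the file headers. The testosterone table has lost the headers of both significance columns, which were identified by position and values. Read totals and depth are unknown here.

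Region symbols were matched to RefSeq protein-coding genes of GRCh38.p14 on chromosomes 1 to 22 and X. A gene was marked where a region credited to it lay within 1 kb of its start in the authors' annotation. Shares have Wilson intervals. No test between conditions or gene groups was made, with 1 IP each. All 33 genes are named, and in each further role the gene with the highest control fold and any with a testosterone region at its promoter; neighbors credited with a region, and 3 genes with a testosterone region elsewhere, were named after their values were seen. The members and lists were chosen with earlier results of these data known. Motifs were searched on both strands. Code was tested on simulated data. Python 3.11.15, pandas 2.3.3 and scipy 1.17.1 were used.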

Additional observations from a re-analysis of the deposited data

How the results depend on the processing

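Of 48 values under alternatives, 42 stayed close to the value reported (counts and the ratio of medians within 1.5 times, a median fold within the spread between genes), 6 moved and none reversed. Some of the 42 could not move, because a count of 0 stays 0 under a stricter limit. These were the testosterone counts under stricter limits and the shared regions under a reciprocal overlap. A count also cannot reverse, and only the ratio of medians could have. The number of marked members with testosterone, 0, was 1 when any region with the member as nearest gene counted, since E2F2 then entered. In control cells it was 18, and 4 when only regions with a -log10 q of 10 or more counted, a limit that also took all coding genes to 14.4%, against 41.0% without it. Among the 22 G1/S genes 12 were marked, 7 with the limit on -log10 q set to 5 and 4 with it set to 10. Among the 11 G2/M genes 6 were marked, 5 with the limit of 5 and 0 with the limit of 10. The ratio of the G1/S to the G2/M median was 1.12 for fold and 1.70 for summed width. The cause of these shifts was not tested, except that a stricter limit leaves fewer regions. A limit at the lowest -log10 p of the testosterone list, chosen after seeing the data, left 18 marked genes in control cells. No control region was credited to an MCM gene, so their 0 was fixed in advance under every alternative that counts credited regions. Only the alternative with regions on or near gene bodies could differ, and there MCM7 entered. No paired analysis was possible because each condition has 1 IP library.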
